A study of Macaca mulatta with 13 samples.

Results

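Plasma cells of the rhesus macaque colon were taken from single-cell RNA counts as the kept cells in which JCHAIN made up at least 1% of the unique molecular identifiers (UMIs, the tags by which captured RNA molecules are counted), with at least 1 UMI of MZB1 and fewer than 5 of IGHE. This rule found 2939 of 20567 kept cells (14.3%, 95% exact binomial interval 13.8 to 14.8), and they held 37.7% of the UMIs of all kept cells. Colon leukocytes of Macaca mulatta were sorted as viable cells that carried CD45, a surface protein of leukocytes, and lacked a second CD45 label, named IVas in the protocols. The labels name 13 libraries from colon, of which 3 hold host and donor cells together from animals with graft-versus-host disease (GVHD) after transplantation of blood-forming cells, 4 are host fractions, 2 are donor fractions and 4 come from untransplanted healthy controls. In 2 of the 4 GVHD samples host and donor cells were parted in the sort by MAMU-A001, an MHC class I molecule, so those fractions hold only cells that could be typed by it. These numbers do not match the labels, which name 3 combined libraries, 4 host fractions and 2 donor fractions. How the libraries fall on the 4 samples was not worked out. The sources used here give neither the age of the animals, their conditioning and the time after transplantation, nor which of the 2 versions of the droplet kit made each library.

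The barcodes carry a library number, 1 to 13, and the sources used here do not tie the numbers to the labels. If the numbers follow the order of the labels, libraries 10, 12 and 13 are the combined GVHD libraries, 8, 9 and 11 are healthy controls, 1, 6 and 7 are host fractions, 2 and 5 are donor fractions and 3 is the other healthy control. This order is an inference, so each value is given by library number, the sets are named only as what they would be, and no test, mean or SD over libraries is given. Libraries 4 and 6 shared 5323 barcodes, while other pairs among libraries 1 to 7 shared 6 to 55, pairs among libraries 8 to 13 shared 1 to 10 and pairs across these sets 0 to 3. All 39 kept barcodes of library 4 were also kept in library 6, and library 4 was left out. The 12 libraries used held 29 to 2858 kept cells, and levels are given as CPM, in which a gene's UMIs are scaled to the total of the cells in question.

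Plasma cells are the end stage of B cells and secrete antibody. In the gut most of them make IgA, which is joined into dimers by the J chain (JCHAIN) and carried across the epithelium, and a smaller part make IgM, which the J chain also joins. Their endoplasmic reticulum (ER) is enlarged: antibody chains enter it through the SEC61 channel, are folded and linked by chaperones and disulfide isomerases with helpers such as MZB1, and leave in vesicles. CCR10 is the receptor for the chemokines CCL27 and CCL28, and CCL28, made by the epithelium of the colon, is known to draw IgA plasma cells there.

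A plasma cell had a median of 12133 UMIs and 1453 genes, and another kept cell 3143.5 UMIs and 1108 genes. JCHAIN took a median of 5.40% of a plasma cell's UMIs (quartiles 3.87 and 7.30). Of 2959 cells with at least 1% JCHAIN, 14 lacked MZB1 and 6 had 5 or more IGHE UMIs. Few cells lay near the threshold. Just inside it, 18 cells had 1 to 1.2% JCHAIN, with a median of 19.5 UMIs of MZB1 and 4.71% of UMIs in IGHA2. Just outside, 22 cells had 0.8 to 1%, with a median of 16 UMIs of MZB1 and 3.48% in IGHA2.

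Libraries 6 and 7, which held 17 and 3 of the plasma cells, went against the label in some genes and not in others. JCHAIN was at 293245 and 333924 CPM there, and IGHA2, the IgA heavy chain constant gene, at 4170 and 955 CPM, against 94961 to 145012 CPM in the 9 libraries with at least 20 plasma cells. SSR4, a subunit of the ER translocon that was at 1673 to 3482 CPM in those 9 libraries, was at 9.74 and 0 CPM in libraries 6 and 7. The other kept cells of libraries 6 and 7 lacked it too, at 3.56 and 0 CPM, against 295 to 831 CPM in those of the 9. IGHA2 was at 0 and 327 CPM in these other cells, against 688 to 5516 CPM. The low levels of both genes were thus not particular to the plasma cells of these libraries. Other plasma cell genes were present: TNFRSF17, the gene of the survival receptor BCMA, was at 1345 and 2932 CPM there, against 135 to 319 CPM in the 9, SEC11C at 2095 and 3069 CPM, against 529.7 to 1485 CPM, and DERL3 at 1228 and 614 CPM, against 702 to 1946 CPM. In the other kept cells of library 7 JCHAIN was still at 169472 CPM, and at 127 to 643 CPM in those of the 9. TNFRSF17, SEC11C and DERL3 were at 591, 1584 and 180 CPM in those other cells of library 7. In the other cells of the 9 they were at 0.411 to 23.6, 114 to 267 and 8.83 to 148 CPM, and in those of library 6 at 0, 238 and 3.56 CPM. In library 7 these genes thus did not set the plasma cells apart as they did elsewhere. MZB1, which the choice of cells required, was at 273 CPM in the plasma cells of library 7 and 0 CPM in its other cells. Those other cells thus included cells rich in JCHAIN that lacked an MZB1 UMI. With so few cells in libraries 6 and 7, gene levels below rest on the 9 libraries 1, 2, 3, 5, 8, 10, 11, 12 and 13, and the share of plasma cells without libraries 6 and 7 was again 14.3%.

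The share of plasma cells differed widely between libraries. They were 78.2% of 728 kept cells in library 10, 14.2% of 2858 in library 12 and 38.1% of 1416 in library 13, which would be the combined GVHD libraries, against 18.8% of 2111 in library 8, 0.532% of 2820 in library 9 and 9.83% of 2848 in library 11, which would be healthy. These ranges overlapped, since library 12 lay below library 8. They were 4.92% of 1952 cells in library 1, 16.8% of 101 in library 6 and 10.3% of 29 in library 7, which would be host fractions. In libraries 2 and 5, which would be donor fractions, they were 10.3% of 2509 and 29.1% of 849 cells, and in library 3 4.69% of 2346. A share is of all leukocytes kept, so fewer cells of another type raise it as much as more plasma cells do. In library 3, for comparison, 1661 cells that were not plasma cells had a UMI of MS4A1, which encodes the B-cell marker CD20, and in library 10 there was 1.

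**Figure D1:**
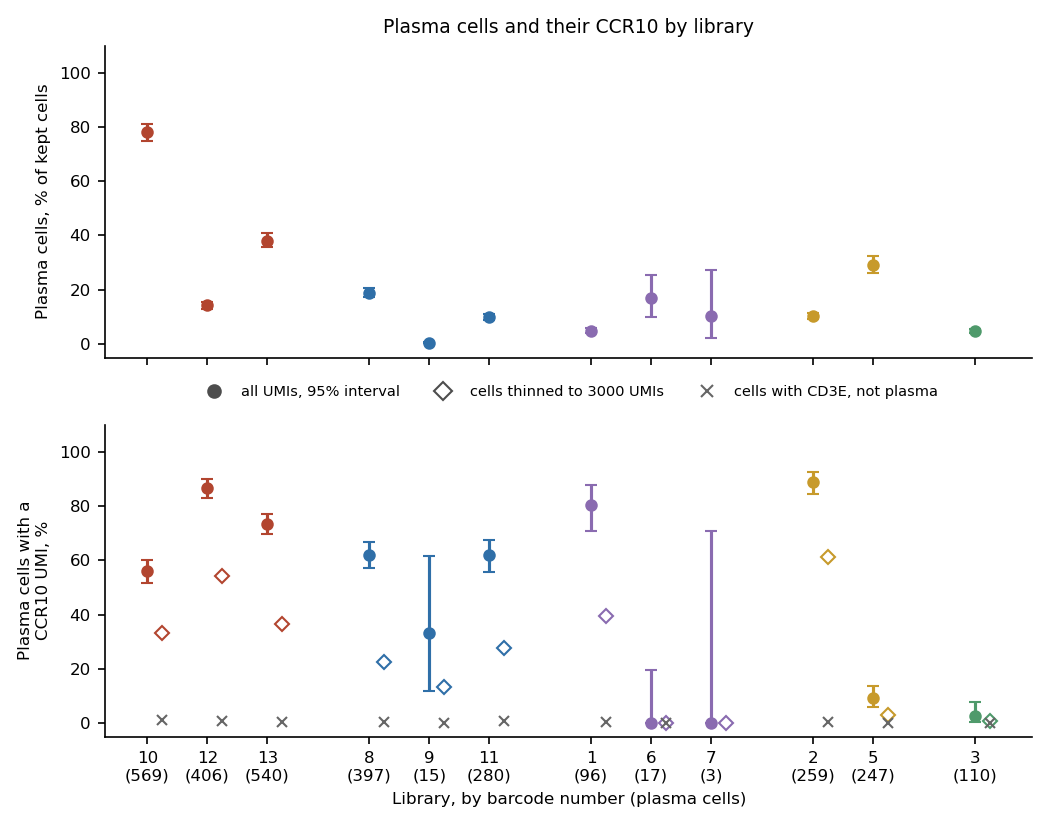
The upper panel plots the percent of kept cells that were plasma cells and the lower panel the percent of plasma cells with at least 1 CCR10 UMI, by library, with exact 95% binomial intervals. Colours and gaps part the libraries as they would fall into combined GVHD, healthy, host, donor and healthy labels if numbers follow label order; open diamonds are the CCR10 share after thinning each cell to 3000 UMIs and crosses the share in cells with CD3E that are not plasma cells. Library 10 stands at 78.2% plasma cells, and libraries 3 and 5 stand at 2.73% and 9.31% CCR10-positive while 2 stands at 88.8%.

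The UMIs of these cells were concentrated in few genes. Genes that each took over 1% of plasma cell UMIs numbered 6 and together held 60.4% of them, from 51.7% in library 2 to 71.2% among the 9 libraries. These were IGHA2 (11.2%), IGKC, the constant gene of the kappa light chain (10.2%), JCHAIN (6.13%), and the genes ENSMMUG00000020092 (23.8%), ENSMMUG00000044861 (7.10%) and ENSMMUG00000014641 (1.87%), for which the tables used here give no symbol. Whether those 3 IDs are antibody genes was not tested, and shares are of UMIs from the 3' end, so they are not divided by gene length. IGHA2 was the most abundant of the 2 named heavy chain genes, with at least 1% of UMIs, in 90.8% of plasma cells (89.7 to 91.8), IGHM, the IgM heavy chain, in 5.92% (5.09 to 6.84), and neither reached 1% in 3.27%. IGKC reached 1% of UMIs in 42.8% of plasma cells and ENSMMUG00000020092 in 60.9%, with both in 11.2% and neither in 7.38%.

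IgM plasma cells were unevenly spread. They were 0.879% of plasma cells in library 10, 6.40% in library 12 and 1.85% in library 13, against 5.54% in library 8, 18.9% in library 11 and 3 of 15 cells in library 9. Library 12, at 6.40% (4.23 to 9.24), lay within the counting interval of library 8 (3.51 to 8.27), so these sets overlapped. The share was 6.25% in library 1, which would be a host fraction, 4.63% and 4.86% in libraries 2 and 5, which would be donor fractions, and 22.7% in library 3, which would be healthy. Library 3, with 25 of 110 cells, and library 11, with 53 of 280, were thus the highest of the 9.

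**Figure D2:**
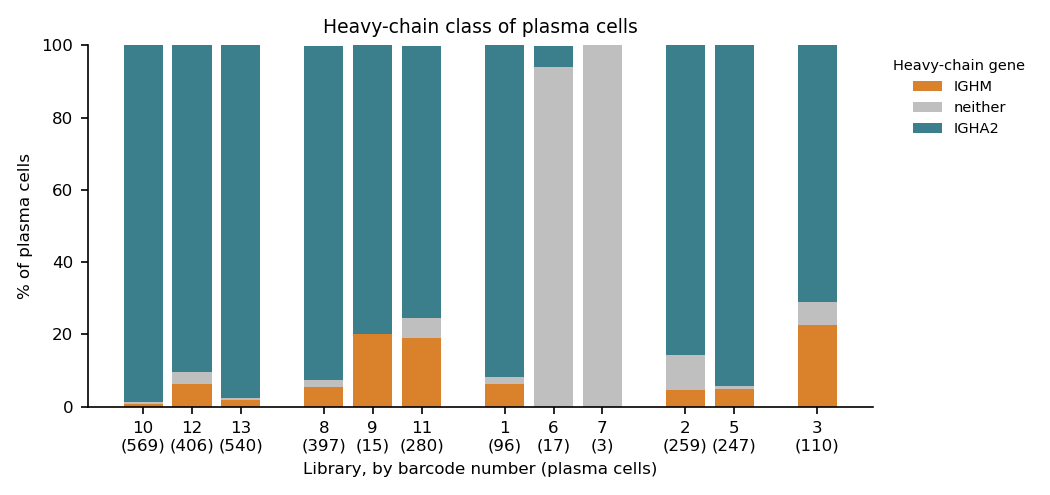
Bars show, for each library, the percent of plasma cells whose leading named heavy chain gene was IGHM (bottom), neither of the 2 named genes at 1% of UMIs (middle) or IGHA2 (top); the number of plasma cells is in brackets. IGHM reached 22.7% in library 3 and 18.9% in library 11, and in libraries 6 and 7 most cells had neither gene.

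Against the other kept cells of the same library, plasma cells had a higher level of few genes and a lower level of most. Of 7055 genes measured, 183 were higher in all 9 libraries (2.59%) and 5343 were lower in all 9 (75.7%), which is 78.3% in either direction, and the median log2 ratio of all measured genes was -1.53. A large part of this tilt is in the denominator: with the 6 genes over 1% left out of it, 941 genes were higher and 1602 lower in all 9. The levels and ratios against other cells given below keep those 6 genes in it. A gene given there as lower, or as no higher, is so by that scale. The cells were chosen by 2 of these genes, so the ratios describe the cells and test nothing.

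The survival receptor BCMA, encoded by TNFRSF17, was at 135 to 319 CPM over the 9 libraries, with a median log2 ratio of 6.90 (3.20 to 7.93) against the other cells, and its relative TACI (TNFRSF13B) was at 20.6 to 53.2 CPM (3.71, 0.44 to 6.62). DERL3, which helps draw misfolded protein out of the ER, was at 702 to 1946 CPM and its ratio was 5.60 (3.16 to 7.02). TXNDC5, a disulfide isomerase of the ER, was at 132 to 1405 CPM, with a ratio of 3.90 (1.27 to 4.87). ITM2C, a membrane protein gene known from plasma cells, stood at 3.51, PRDX4, an ER peroxidase, at 3.12, CRELD2, an ER stress gene, at 2.73 and APOD, an apolipoprotein, at 3.19. ARF3, a GTPase of Golgi transport, was at 973 CPM, against 80.6 CPM in the other cells, and RAB30, another Golgi GTPase, at 146 CPM, against 37.5 CPM.

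Of 24 measured members of a list of plasma cell identity genes (34 names, 32 matched), 15 were higher in all 9 libraries and 1, CD9, was lower, beside 2.59% higher and 75.7% lower over all genes. PRDM1, the transcription factor Blimp-1 that ends the B-cell programme, was at 52.9 CPM, against 21.4 CPM in the other cells, and was higher in 8 of 9 libraries. IRF4, another factor of plasma cell fate, was at 78.9 and 57.5 CPM and was higher in 5 of 9. CD38, used as a surface marker of human plasma cells, was at 31.3 CPM, against 71.1 CPM in the other cells, and was higher in 2 of 9 libraries. The genes over 1% held 60.4% of plasma cell UMIs, which lowers the CPM of CD38, IRF4 and every other gene in these cells. SDC1, the plasma cell marker CD138, was at 2.78 CPM, against 0.0732 CPM in the other cells. PTPRC, which encodes CD45, the protein the sort relied on, was at 20.6 to 89.2 CPM, against 273 to 926 CPM in the other cells, and was lower in all 9 libraries.

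Of 36 measured genes of translocation and secretion, 15 were higher in every library and 2, SRP9 and SRP14 of the signal recognition particle, were lower. Over all measured genes 2.59% were higher and 75.7% lower, and the counts of this paragraph stand beside those shares. Those higher included the translocon subunits SSR4, with a median log2 ratio of 2.31 (1.71 to 2.52), and SSR3 (2.11), and the signal peptidase subunit SPCS3 (1.85). SEC11C, the catalytic subunit of that peptidase, which stood in the identity list, was at 2.53 (1.12 to 3.55). Of 28 measured genes of ER folding and the unfolded protein response, 12 were higher and 4 lower. HSP90B1, the ER chaperone GRP94, was at 2207 CPM, against 393 CPM in the other cells, while HSPA5, the ER chaperone BiP, was at 845 and 674 CPM and was higher in 4 of 9 libraries. The 4 lower genes were the stress sensor ATF6, the oxidases ERO1A and ERO1B, and PPP1R15A, which restores translation after stress.

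**Figure D3:**
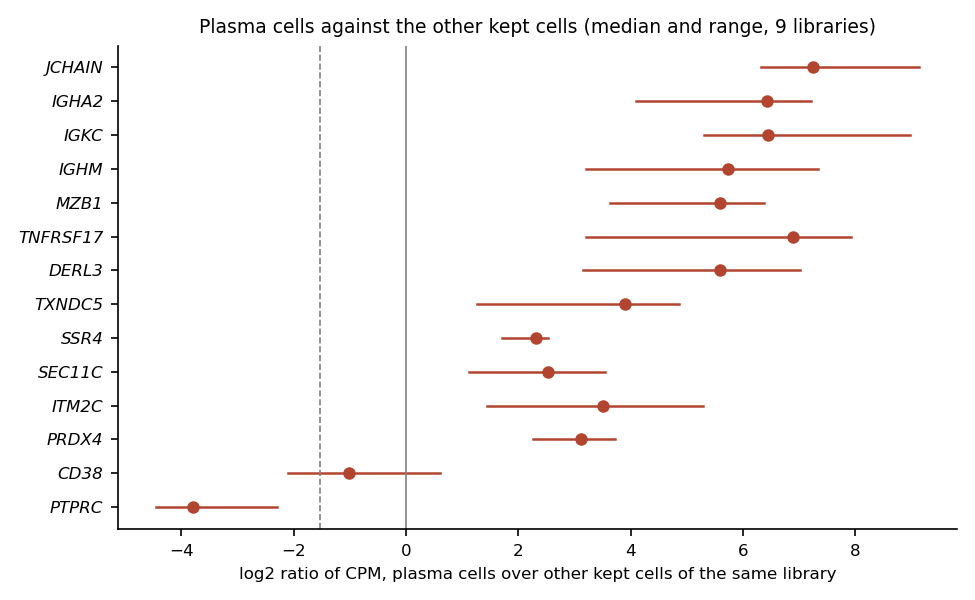
Points are the median and lines the range, over 9 libraries, of the log2 ratio of CPM in plasma cells over other kept cells of the same library; the solid vertical line marks 0 and the dashed line the median of all measured genes, -1.53. The 12 plotted genes from JCHAIN to PRDX4 lie right of 0 in every library, CD38 lies on both sides and PTPRC left of 0.

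Lists of other programmes held few genes that were higher in plasma cells. Of 15 measured proliferation genes 14 were lower in every library, with MKI67, a marker of dividing cells, at 6.97 CPM, against 82.6 CPM in the other cells; RRM2 reached 98.8 CPM in 1 library. Of 16 measured homing and adhesion genes 10 were lower, among them CCR7, the receptor for lymph nodes, and CXCR4, and 1, ICAM2, was higher, at 285 CPM, against 103 CPM. ITGB7, a chain of the gut-homing integrin, was at 92.1 CPM and 94.5 CPM and higher in 4 of 9 libraries, and its partner ITGA4 was at 71.0 and 169.8 CPM. Of 10 measured genes of the B-cell programme, 4 were lower in all 9, including HLA-DRA (115 against 1924 CPM), and none was higher. Of 17 measured genes of metabolism 11 were lower and 1, PRDX4, was higher; 13 interferon genes counted 8 lower, 16 survival genes 11 lower with the BCMA and TACI genes higher, 11 genes of cytokines and effectors 10 lower, and 14 immediate early genes 7 lower with BTG2 higher. These counts stand beside 75.7% lower over all measured genes. Only the proliferation list and the list of cytokines and effectors had a larger share of lower genes than that. In the other lists of this paragraph lower genes were less common than among all genes.

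Marker genes of other cell types were found in the droplets. The summed level of 8 T-cell markers was 199 to 1176 CPM in plasma cells over the 9 libraries, against 1307 to 8444 CPM in the other kept cells. UMIs of at least 2 of CD3E, CD3D, CD3G and TRAC were found in 19.7% of plasma cells, from 10.7% in library 13 to 54.2% in library 1. The 8 myeloid markers summed to 2.60 to 628 CPM, against 50.8 to 17188 CPM, the 6 B-cell markers to 20.6 to 67.6 CPM, against 6.41 to 1342 CPM, and the 7 matched epithelial markers to 11.3 to 67.9 CPM, against 2.57 to 2214 CPM. NK and innate lymphoid markers summed to 6.07 to 26.6 CPM, mast cell markers to at most 0.671 CPM, and 6 stromal and endothelial markers to 10.4 to 41.1 CPM, with COL3A1 and PLVAP at 0. Single genes led some of these sums. In plasma cells pooled CD3D was at 245 CPM, beside 16.5, 16.9 and 30.9 CPM for CD3E, CD3G and TRAC. In the other kept cells these genes were at 1281, 346, 273 and 705 CPM. The epithelial sum was mostly KRT18, at 25.6 CPM against 22.7 CPM in the other cells. The stromal and endothelial sum was mostly PECAM1, at 34.1 CPM against 66.9 CPM. No droplet was removed as a doublet, and how far free RNA or joined cells made up these levels was not tested.

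CCR10 marked these plasma cells in most libraries and was nearly lacking in others. It was at 173 CPM in plasma cells pooled, against 1.23 CPM in the other kept cells, and 62.1% of plasma cells (60.3 to 63.8) had at least 1 CCR10 UMI, against 0.402% of cells with CD3E that were not plasma cells (median 3241 UMIs) and 0.282% of such cells with MS4A1 (median 3459.5 UMIs). Thinned to 3000 UMIs per cell, with 15 shallower cells left out, 33.3% of plasma cells kept a CCR10 UMI. CCR10 was at 153, 291 and 158 CPM in libraries 10, 12 and 13, against 118, 67.3 and 111 CPM in libraries 8, 9 and 11. The lowest of the first set lay above the highest of the second, but library 9 rests on 10 UMIs. The share of plasma cells with a CCR10 UMI was 55.9%, 86.7% and 73.5% in libraries 10, 12 and 13, against 62.0%, 33.3% and 61.8% in libraries 8, 9 and 11, so the shares overlapped. The median depth of a plasma cell was 6849, 19208 and 11707.5 UMIs in libraries 10, 12 and 13, against 11627, 8656 and 13267.5 UMIs. Thinned, the shares were 33.1%, 54.3% and 36.5%, against 22.7%, 13.3% and 27.6%, and as point values no longer overlapped. Library 9 rests on 2 of 15 cells there, and the nearest values were those of library 10 (187 of 565) and library 11 (77 of 279). Among IGHA2 cells alone the counting intervals of libraries 10 (29.4 to 37.4) and 11 (23.0 to 35.7) overlapped, so counting error does not part these 2 libraries.

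Libraries 2, 5 and 3 showed the widest range. CCR10 was at 404 CPM in library 2 and 4.65 CPM in library 5, which would both be donor fractions, and at 2.60 CPM in library 3, which would be healthy. A CCR10 UMI was found in 88.8% of 259 plasma cells in library 2, 9.31% of 247 in library 5 and 2.73% of 110 in library 3. Library 5 had the deepest plasma cells, with a median of 20013 UMIs. At a depth of 3000 UMIs, 7 of 247 of its plasma cells kept a CCR10 UMI (2.83%, 1.15 to 5.75), beside 0 of 539 cells with CD3E that were not plasma cells, which had a median of 3744 UMIs and allow a share of up to 0.557%. In library 3 it was 1 of 109 thinned plasma cells (0.917%, 0.0232 to 5.01), beside 0 of 532 cells with CD3E (up to 0.564%) and 5 of 1661 with MS4A1 (0.301%, 0.0978 to 0.701), so CCR10 in its plasma cells could not be told from background at this depth. In library 1, which would be a host fraction, CCR10 was at 212 CPM and found in 80.2% of 96 plasma cells. No CCR10 UMI was found in the 17 plasma cells of library 6, which by counting alone allows a share of cells with a UMI of up to 17.6%, nor in the 3 of library 7. Without libraries 3 and 5 together the pooled share was 69.6%. XBP1, another plasma cell gene, was also low in plasma cells of libraries 3 and 5, at 1.73 and 3.53 CPM, against 16.0 and 31.5 CPM in libraries 1 and 2. In the other kept cells it was at 0.315 and 0.368 CPM, against 5.41 and 2.83 CPM. DERL3, at 1396 and 1326 CPM, and TNFRSF17, at 218 and 319 CPM, were not low in plasma cells of libraries 3 and 5. Whether the low CCR10 is a trait of these plasma cells or of the libraries was not tested.

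By antibody class, thinned cells of the 9 libraries held a CCR10 UMI in 34.7% of IGHA2 cells (918 of 2644), 26.0% of IGHM cells (44 of 169, interval 19.6 to 33.3) and 14.3% of cells with neither (11 of 77, 7.35 to 24.1). These pools mix libraries of very different CCR10 levels. Inside libraries IGHM cells lay below IGHA2 cells in 6 of 9 and above them in libraries 3 (4.17% against 0%), 5 (8.33% against 2.58%) and 12 (61.5% against 55.5%), on 1, 1 and 16 IGHM cells with a UMI, so the pooled order did not hold throughout. In library 11, which gave the most IGHM cells, 26.4% of IGHM cells and 29.0% of IGHA2 cells held one. Cells with neither lay below IGHA2 cells in 7 of 9 libraries, among them 2 (24.0% against 66.4%), 11 (12.5% against 29.0%) and 12 (7.69% against 55.5%), on 13 to 25 cells each.

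CCR10-positive plasma cells were then compared with CCR10-zero ones of the same depth. Within each library positive and zero cells of nearest UMI total were paired, the closest pairs first and each cell once, and pairs over 10% apart were dropped. Libraries 2, 5, 8, 10, 11, 12 and 13 gave at least 20 pairs, from 23 in library 5 to 218 in library 10 and 677 in all, and the summed UMIs of positive cells lay within -0.0790% and 0.370% of those of their zero cells. Of 2030 genes measured, 28 were higher in CCR10-positive cells in all 7 libraries (1.38%) and 24 were lower (1.18%), which is 2.56% in all, and the median log2 ratio of all genes was -0.00024. The ratios were small beside those between cell types, and which genes were counted depended on how the cells were paired and scaled. With positive cells taken from the deepest down they were 8.28% to 10.1% deeper than their zero cells in 6 of the 7 libraries, and 24 genes were higher and 48 lower, of which 11 and 11 were the same genes. Without the named antibody genes in the denominator 172 were higher and 2 lower, without the 6 genes over 1% 55 and 16, and with the median of all genes set to 0 41 and 26. Of the 24 lower genes 12 had equal UMI counts in both kinds of cell in at least 1 library, where the totals alone set the sign, and of the 28 higher genes 3 had. Each of the 7 libraries, left out alone, moved a count over 1.5 times, with 33 to 77 higher and 32 to 82 lower.

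Among genes higher in CCR10-positive cells were some of the ER. TXNDC5 was at 1083 CPM in CCR10-positive and 789 CPM in CCR10-zero cells, with a median log2 ratio of 0.36 (0.30 to 1.26). In library 12 it was at 1356 and 567 CPM and in library 5 at 210.0 and 169 CPM. ITM2C was at 353 CPM in CCR10-positive and 262 CPM in CCR10-zero cells (0.41, 0.25 to 0.86). KDELR3, a receptor that returns escaped ER proteins from the Golgi, was at 19.9 and 15.5 CPM (0.46, 0.04 to 0.85), and CREB3, a factor of the secretory pathway, at 77.5 and 63.6 CPM (0.29, 0.03 to 1.35). TXNDC5 and ITM2C kept this sign under each scaling and in thinned cells, where they stood at 0.50 and 0.35, and with pairs from the deepest down, at 0.46 and 0.45.

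Of the named antibody genes IGKC and JCHAIN were higher in all 7 libraries, and IGHA2 and IGHM were not. IGKC was at 127292 CPM in CCR10-positive and 92118 CPM in CCR10-zero cells, with a median log2 ratio of 0.49 (0.20 to 1.25), and at 117705 and 49635 CPM in library 11. Of all thinned cells with IGKC at 1% of UMIs or more, 37.3% held a CCR10 UMI, against 30.4% of those below. Of the 7 libraries, library 2 (58.1% against 62.6%) and library 8 (21.0% against 24.3%) went the other way. JCHAIN, which the choice of cells used, was at 59716 and 50642 CPM (0.20, 0.10 to 0.87). IGHA2 was higher in 6 of 7 libraries (0.17, -0.03 to 1.05). IGHM was higher in 6 of 7, at 24470.1 CPM in CCR10-positive and 3529.6 CPM in CCR10-zero cells of library 5, but at 851 and 9519 CPM in library 2.

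IL2RG, the signal chain shared by several cytokine receptors, was at 103 CPM in CCR10-positive and 73.1 CPM in CCR10-zero cells (0.49, 0.22 to 0.65), and PSMC6, an ATPase subunit of the proteasome, at 85.1 and 63.5 CPM (0.36, 0.21 to 1.59). ITGAE, the integrin chain CD103 that binds E-cadherin of the epithelium, had a median ratio of 0.28 (0.04 to 0.58) and was at 106 and 70.6 CPM in library 2, but its ratio was -0.30 in thinned cells and -0.12 with no matching of depth. The rest of the leading 10 were NOB1, a nuclease of ribosome maturation (0.53), COPS6, a subunit of the COP9 signalosome (0.49), TIMM8B of mitochondrial import (0.49), the ubiquitin ligase scaffold CUL5 (0.39, and -0.010 in thinned cells) and the kinase RPS6KB2 (0.37).

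On the other side LCK, a kinase of T cells, was at 11.8 CPM in CCR10-positive and 21.3 CPM in CCR10-zero cells, with a median log2 ratio of -0.50 (-1.71 to -0.26). ID2, an inhibitor of transcription factors, was at 15.8 and 30.2 CPM (-0.74), but in library 5 at 19.8 and 19.9 CPM, from equal UMI counts. METAP2, which trims the first methionine of new proteins, was at 22.7 and 29.6 CPM (-0.44, -0.74 to -0.03), and the splicing factor gene BUD31 at 36.6 and 47.0 CPM (-0.31, -0.69 to -0.18). The others of the leading 10 were THAP6 (-0.50), CNPPD1 (-0.49), MRPL48 of the mitochondrial ribosome (-0.49), SAT2 (-0.37), EXOSC5 of the RNA exosome (-0.36) and CDC123 (-0.34).

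**Figure D4:**
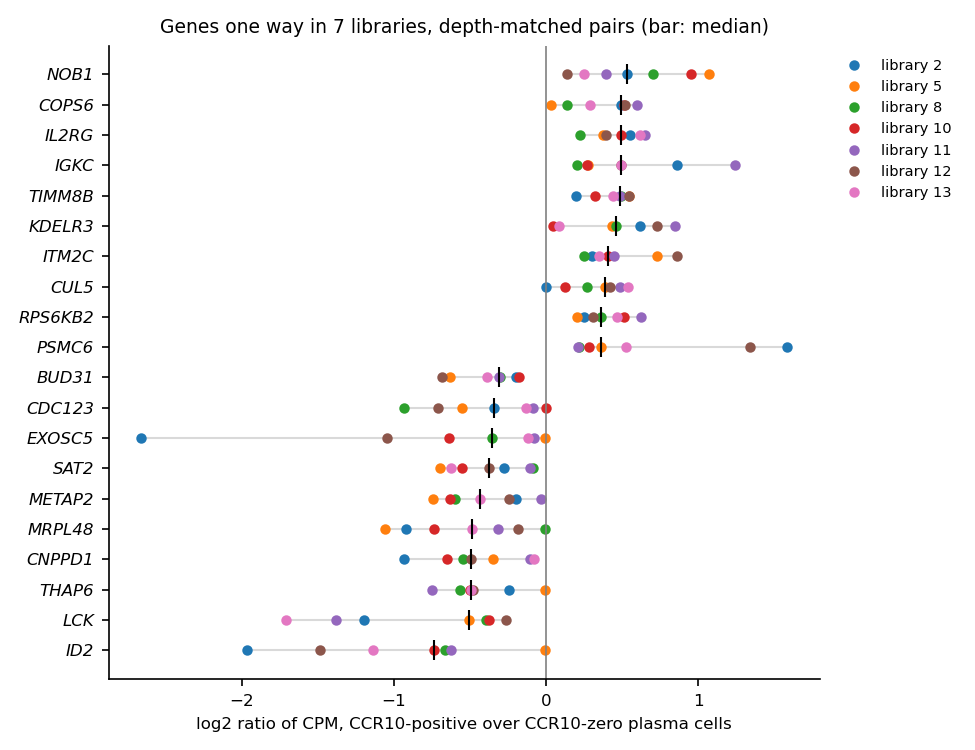
Points are the log2 ratio of CPM in CCR10-positive over CCR10-zero plasma cells, paired for depth, in each of 7 libraries, with the median as a black bar, for the 10 highest and 10 lowest named genes. Every point of ITM2C lies between 0.25 and 0.86 and every point of LCK between -1.71 and -0.26, while ID2, THAP6 and EXOSC5 touch 0 in library 5.

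The lists held few such genes. Of plasma cell identity genes 2 of 22 measured were higher (TXNDC5 and ITM2C), of ER folding genes 1 of 24 (CREB3), of homing and adhesion genes 1 of 9 (ITGAE) and of survival genes 1 of 6 (IL2RG). These counts stand beside 1.38% higher and 1.18% lower over all genes, so a single gene of a list of 24 is near the background. None of 34 translocation and secretion, 5 B-cell, 3 proliferation, 14 immediate early, 7 interferon and 14 metabolism genes went one way in all 7 libraries, and no list had a lower gene. PRDM1 stood at 66.2 CPM in CCR10-positive and 64.5 CPM in CCR10-zero cells, CD38 at 24.8 and 30.9 CPM and ITGB7 at 102 and 82.8 CPM. The T-cell markers summed to 212 to 717 CPM in CCR10-positive and 199 to 602 CPM in CCR10-zero cells and were higher in the positive cells of 4 of 7 libraries. With plasma cells that had 2 or more T-cell genes left out, 77 genes were higher and 17 lower of 2300 measured in 6 libraries, with TXNDC5 at 0.44 and ITM2C at 0.36.

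Libraries 10, 12 and 13 were last set against 8 and 11, which would be combined GVHD against healthy. All 5 belong to the set of libraries 8 to 13 that shared barcodes. Library 9 had 15 plasma cells, under the minimum of 20, and its values are given beside. Of 1007 genes with a mean of at least 50 CPM, 438 were higher in all of 10, 12 and 13 than in both 8 and 11 (43.5%) and 79 were lower (7.85%), which is 51.3% in all, so that a gene without overlap was the common case. The median difference of all genes was 0.24 on the log2 scale. With that median set to 0 the counts were 256 higher and 227 lower, and with library 9 included 145 and 83 of 1096 genes. Of the 438 genes, 145 were still higher with library 9 and 256 with the median at 0, and of the 79 lower genes 65 and 79 were still lower. Without library 8, 11 or 12 the lower genes numbered 127, 230 and 154.

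CADM1, a cell adhesion molecule, was at 96.7, 65.9 and 124 CPM in libraries 10, 12 and 13, against 9.46 and 16.3 CPM in libraries 8 and 11 and 20.2 CPM in library 9. It was found in 50.1%, 70.2% and 71.9% of plasma cells, against 11.1%, 20.4% and 13.3% in 8, 11 and 9. In the other kept cells it was at 0.411 to 2.19 CPM in all 6 libraries. MDM2, the ubiquitin ligase that restrains p53, was at 308, 95.6 and 235 CPM in libraries 10, 12 and 13, against 40.1, 26.5 and 53.8 CPM in 8, 11 and 9. Its other kept cells had 67.8, 37.2 and 48.5 CPM, against 35.8, 36.3 and 35.7 CPM.

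FGL2, a fibrinogen-like protein, was at 325, 161 and 287 CPM in libraries 10, 12 and 13, against 23.6, 74.6 and 47.1 CPM in 8, 11 and 9, while the other kept cells overlapped at 125, 66.5 and 78.5 CPM, against 138, 75.0 and 65.4 CPM. CD160, a receptor known from T and NK cells, was at 294, 95.4 and 226 CPM, against 57.6, 26.7 and 13.5 CPM, and in the other kept cells at 101, 92.8 and 83.4 CPM, against 18.1, 31.3 and 14.7 CPM. IFI30, a lysosomal reductase, was at 254, 300.2 and 256 CPM, against 50.9, 51.0 and 168 CPM. CD63, a tetraspanin of late endosomes, was at 2116, 1712 and 2166 CPM, against 628, 499 and 296 CPM. PLIN2, a coat protein of lipid droplets, CARHSP1 and EMP3 were likewise higher in 10, 12 and 13, by 1.93, 1.88 and 1.86 in median log2 CPM.

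GZMB had the largest difference of all named genes, 6.20, and is a gene of cytotoxic cells. It was at 92.0, 187 and 140.4 CPM in plasma cells of libraries 10, 12 and 13, against 0.805, 3.89 and 0 CPM in 8, 11 and 9. In the other kept cells it was at 4562, 3009 and 2784 CPM, against 231, 404 and 128 CPM. In plasma cells with none of the T-cell genes CD3E, CD3D, CD3G and TRAC it was at 36.4, 8.22 and 111 CPM, against 0, 0.889 and 0 CPM. These cells were 334 of 569, 237 of 406 and 329 of 540 plasma cells in libraries 10, 12 and 13. They were 179 of 397, 158 of 280 and 6 of 15 in libraries 8, 11 and 9. How much of it came from other cells was not tested beyond these values.

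IGHM had the lowest difference among the leading genes, -2.87 in median log2 CPM. It was at 1036, 7959.9 and 2195 CPM in libraries 10, 12 and 13, against 10242, 25004 and 9612 CPM in libraries 8, 11 and 9. In plasma cells without the T-cell genes CD3E, CD3D, CD3G and TRAC it was at 799.7, 8078 and 1133 CPM, against 2045, 25392 and 20739 CPM, so that library 12 lay above library 8 and the sets overlapped, as the shares of IGHM cells did. The value of library 8 there rests on 179 of 397 plasma cells and that of library 9 on 6 of 15. RGS2, which curbs G protein signals, was at 30.2, 97.7 and 39.3 CPM, against 152, 223 and 464 CPM. The linker histone gene HIST1H1E was at 32.0, 57.0 and 27.5 CPM, against 89.6, 172 and 269 CPM, and its relative H1FX was lower by 1.44 in median log2 CPM. NR4A1, an immediate early nuclear receptor, was at 40.3, 57.8 and 32.4 CPM, against 105, 76.3 and 67.3 CPM. The splicing factor gene SRSF7 (-1.04) and the translation inhibitor gene PDCD4 (-1.03) were also lower. MT2A was at 123, 91.7 and 126 CPM, against 253 and 1228 CPM in 8 and 11 but 26.9 CPM in library 9, and the heat shock gene DNAJB1 (-1.16) and PSMC6 (-1.13) overlapped with library 9 too.

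Of 27 measured genes of translocation and secretion 22 were higher in libraries 10, 12 and 13 than in 8 and 11 and none lower, with a list median of 0.53 beside 0.24 over all genes and 43.5% of all genes higher. Of the 22, 8 were still higher with library 9 included, 15 with the median of all genes set to 0 and 6 under each of these. SSR4 was at 3451, 3482 and 3282 CPM in libraries 10, 12 and 13, against 2026, 2257 and 2066 CPM in 8, 11 and 9. SPCS3 was at 1372, 1179 and 1199 CPM, against 591, 792 and 828 CPM. DDOST, a subunit of the enzyme that adds sugars to new proteins, was at 539, 446 and 607 CPM, against 256, 269.6 and 377 CPM. With the median of all genes set to 0, SSR2, SRP14, SRPRA and ARF4 turned sign, to -0.089, -0.14, -0.12 and -0.0021.

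ER folding genes went both ways, with 11 of 22 measured higher and 3 lower, a median of 0.30, beside 43.5% higher and 7.85% lower over all genes, so the higher share was near the background. With library 9 included 6 of the 11 were still higher, and all 3 lower genes still lower. EDEM2, which marks misfolded glycoproteins for disposal, was at 86.9, 68.2 and 85.9 CPM in libraries 10, 12 and 13, against 39.5, 37.4 and 60.6 CPM in 8, 11 and 9. HSPA5 was at 997, 756 and 972 CPM, against 1475, 1020.0 and 1050.0 CPM, and the disulfide isomerase PDIA4 was also lower, at 385, 289.6 and 346 CPM, against 446, 502 and 491 CPM. Of 20 measured identity genes 7 were higher and 2 lower, a median of 0.21, which for higher genes is under the 43.5% of all genes. SEC11C was at 1382, 1085 and 1316 CPM, against 529.7, 616 and 673 CPM, and DERL3 at 1787, 1601 and 1946 CPM, against 702, 1156 and 1185 CPM. CD79A, a signal chain of the B-cell receptor, was lower, at 80.4, 78.3 and 91.2 CPM, against 151, 161 and 613 CPM, as was IRF4, though library 9 overlapped. XBP1, TXNDC5, TNFRSF17 and PRDM1 overlapped between libraries 10, 12 and 13 and libraries 8 and 11.

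Interferon genes counted 4 of 5 measured higher, beside 43.5% of all genes, with a median of 1.02, and 2 of the 4 were still higher with library 9 included. ISG15, a ubiquitin-like protein induced by interferon, was at 114, 150.2 and 145 CPM in libraries 10, 12 and 13, against 42.9, 45.2 and 40.4 CPM in 8, 11 and 9. IFI6 was at 243, 212 and 219 CPM, against 137, 71.5 and 53.8 CPM. BST2, the antiviral tetherin, was at 342, 315 and 327 CPM, against 158 and 164 CPM, but library 9 was at 323 CPM, and ISG20 turned to -0.033 with the median at 0. Other genes of the list, such as MX1 and IFIT3, fell under the 50 CPM minimum, so the 4 of 5 does not speak for all 20.

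Of 14 measured immediate early genes none was higher and 5 were lower, beside 43.5% and 7.85% of all genes, and 3 of the 5 were still lower with library 9. The list median was -0.50, and among the 5 was JUN at 1208, 1957 and 1135 CPM in libraries 10, 12 and 13, against 1997, 2242 and 2026 CPM in 8, 11 and 9. Of 13 metabolism genes 9 were higher and 2 lower, and 1 of the 9 was still higher with library 9. GAPDH was at 325, 251 and 289 CPM, against 148 and 147 CPM, but at 659.6 CPM in library 9. Of 8 homing and adhesion genes CCR10 and ICAM2 were higher and RGS2 and ITGA4 lower. Among the rest 1 of 5 survival genes (IL2RG), 1 of 4 B-cell genes (CD37) and 2 of 3 cytokine and effector genes (GZMB and TGFB1) were higher, and the 1 measured proliferation gene, HMGB2, was lower. T-cell markers summed to 233, 270.4 and 199 CPM in plasma cells of libraries 10, 12 and 13, against 219, 199 and 377 CPM in 8, 11 and 9, and with cells that had 2 or more T-cell genes left out 417 genes were higher and 73 lower.

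**Figure D5:**
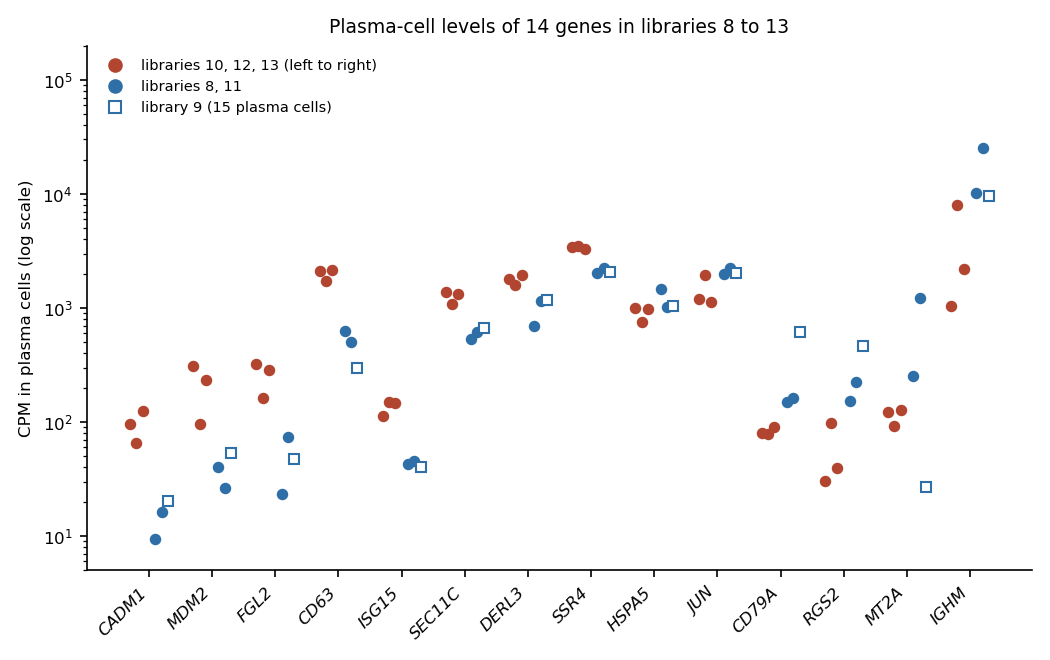
Points are the CPM (log scale) of 14 genes in plasma cells of single libraries: 10, 12 and 13 at left in each column, then 8 and 11, then library 9 as an open square. CADM1, CD63, ISG15 and SSR4 lie higher in 10, 12 and 13 than in the other 3 libraries and RGS2, CD79A and IGHM lower, while MT2A is split by library 9.

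Between libraries 1 to 7 and 8 to 13 several of these genes differed more than within libraries 8 to 13. TXNDC5 was at 132 to 437 CPM in plasma cells of libraries 1, 2, 3 and 5, against 938 to 1405 CPM in 8, 10, 11, 12 and 13. XBP1, the transcription factor of the secretory programme, was at 1.73 to 31.5 CPM in the first 4 and 83.1 to 127 CPM in the others. B2M, the invariant chain of MHC class I, went the other way, at 8187 to 16367 CPM against 2346 to 4639 CPM. The other kept cells of the same libraries differed too. XBP1 was at 0.315 to 5.41 CPM in them, against 11.2 to 17.5 CPM. B2M was at 8833 to 34192 CPM, against 6028 to 14468 CPM, with overlap, and TXNDC5 at 22.8 to 54.7 CPM, against 36.6 to 69.2 CPM, also with overlap. Labels, kits and barcode sets may all part these libraries and cannot be told apart here, so the host, donor and first healthy libraries are not set against 8 to 13 gene by gene.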

How the data were processed

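The authors deposited raw UMI counts per gene and barcode (34628 genes, 57086 barcodes), made with Cell Ranger 3.1.0, per the submitters' processing notes, which also name Seurat 3.1. A second matrix deposited by the authors holds natural log values of corrected counts for 20606 kept cells, and only its list of cells was used, under the deposited column names. No source used here names the genome build or annotation. The 12 libraries used held 3205412 to 19655788 UMIs, and their plasma cells 14665 to 8943296 UMIs. IDs took symbols from the file (23811) or from the table of gene names (695).

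Counts of plasma cells were summed per library and scaled to CPM (Python 3.11.15, NumPy 2.4.6, SciPy 1.17.1, pandas 2.3.3). Within-library log2 ratios added 0.5 UMIs to each sum, and a gene was measured with at least 10 UMIs over both kinds of cell in every library used, which needed 20 cells or 20 pairs. Pairs were formed closest first; this order was set after taking positive cells from the deepest down had left them 8.28% to 10.1% deeper in 6 of 7 libraries, which is kept as an alternative. A gene was called when it went one way in every library, or, between sets, when values did not overlap at a mean of at least 50 CPM. Intervals are exact Clopper-Pearson (95%), a count of 0 allows 3 counts, and both cover counting error only. Named genes were the 15 of highest level, the 15 of highest ratio to other cells above 100 CPM, the 10 highest and 10 lowest of each comparison, and from each list the members called and up to 6 others by level. The members, lists and rules were chosen with earlier results of these data known, and several samples may share an animal. The scripts were tested on simulated data.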

Additional observations from a re-analysis of the deposited data

Results flagged for a closer look

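Of 7 measures checked over the 9 libraries with at least 20 plasma cells, 1 put a library apart from the rest by the gap to its nearest neighbour, and chance flags about 1 in 20 such groups. Library 10 had plasma cells as 78.2% of its kept cells, and the next highest was library 13 at 38.1%.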

How the results depend on the processing

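The share of plasma cells was 13.7% with JCHAIN at 2% and 13.1% in cells thinned to 1500 UMIs, and ran from 11.9% to 16.5% with single libraries left out. The CCR10-positive share was 42.1% with 2 UMIs required, 33.3% in thinned cells, 69.6% without libraries 3 and 5, and 58.1% to 66.9% with single libraries left out. The share of IGHM cells ran from 4.55% to 7.13%.

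Counts of genes moved with the scaling. Against other cells they were 941 higher and 1602 lower without the genes over 1%, which include IGHA2, IGKC and JCHAIN but not IGHM. For CCR10 pairs, with 28 higher and 24 lower, they were 172 and 2 without named antibody genes, 55 and 16 without genes over 1%, 37 and 149 without matching of depth, 17 and 40 in thinned cells, and 77 and 17 without cells with T-cell genes; 48 genes were lower with pairs from the deepest down, 48 with 5 UMIs and 16 with 15 pairs, and 41 were higher with the median at 0. Of the 28 and 24, 6 and 4 were counted in thinned cells too. Single libraries left out gave 33 to 77 higher and 32 to 82 lower. ITGAE came to -0.12 without matching and -0.30 in thinned cells, and CUL5 to -0.010 in thinned cells; the cause was not tested.

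Between libraries 10, 12, 13 and 8, 11, lower genes were 149 without named antibody genes, the counts were 712 and 319 without genes over 1%, 256 and 227 with the median at 0 and 1154 and 442 at 10 CPM, and higher genes were 145 with library 9. Single libraries left out gave 437 to 646 higher and 94 to 230 lower. With the median at 0 CD79B came to -0.10, EAF2 to -0.051, CALR to -0.052, SSR2 to -0.089, SRP14 to -0.14, SRPRA to -0.12, ARF4 to -0.0021, ISG20 to -0.033, NDUFA4 to -0.049, COX6C to -0.15 and GPX4 to -0.10. Without named antibody genes SRP14 came to -0.024, COX6C to -0.083 and GPX4 to -0.040, ENO1 came to 0.046 with JCHAIN at 2%, and CD79B to -0.00048 in thinned cells. No paired analysis was possible because library numbers carry no label. Depth limits libraries 6, 7 and 9, with 17, 3 and 15 plasma cells, and the cause of these shifts was not tested.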
